A study of Mus musculus with 120 samples.

Results

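The genes described here are 30 transcription factors and cofactors that pattern the developing inner ear. They were taken by gene symbol from a deposited expression table that holds 48371 symbols, and each of the 30 matched 1 entry. The factors and the lists set beside them were chosen with earlier results of these data known. Single cells of the endolymphatic sac of mouse inner ears at E14.5 were profiled with the Smart-seq2 protocol, which reads whole transcripts from individual cells. The cells were 62 from Sox9Y440X/+ mice, heterozygous for a Sox9 allele whose name denotes a stop codon in place of a tyrosine, and 58 from wild-type mice. No label ties a cell to an animal or a litter. Each genotype was therefore 1 sample, no test was made, and SDs and intervals over cells say nothing of the spread between animals.

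The endolymphatic sac is the blind end of a duct that grows out of the dorsal otic vesicle, and it regulates the fluid of the inner ear. Pax2 and Pax8 act early in the otic placode. Dlx, Hmx, Lmx1a, Gbx2 and Msx factors pattern the dorsal vesicle, and mice without Gbx2 or functional Lmx1a form no normal endolymphatic duct. Six4, the Eya proteins and the Dach corepressors belong to one regulatory network. In the sac, the forkhead factor Foxi1 directs the ionocytes, epithelial cells that carry the proton pump and the anion exchanger Slc26a4.

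Cells with at least 1000 genes in their label were kept, which left 58 Sox9Y440X/+ and 57 wild-type cells. They were placed in 8 clusters without use of the 30 factors. The clusters carrying epithelial markers held 37 Sox9Y440X/+ and 56 wild-type cells, called epithelium-like here, and those carrying collagen and other connective tissue markers held 21 Sox9Y440X/+ cells and 1 wild-type cell, called mesenchyme-like. Epcam, an epithelial adhesion molecule, was detected in 37 of 37 Sox9Y440X/+ and 55 of 56 wild-type epithelium-like cells, where detection means a value of at least 1 FPKM, the fragments of a gene scaled to its length and to the library. The median number of genes in the epithelium-like cells was 4506 in the Sox9Y440X/+ cells and 3241.5 in the wild-type cells, and a median of 8 and 6 of the 30 factors was detected per cell. Sox9 itself was detected in 36 of 37 Sox9Y440X/+ and 29 of 56 wild-type epithelium-like cells, and the related Sox10 in 2 of 37 and 26 of 56. A gene-level value does not separate the mutant allele from the intact one. Xist, an RNA of cells with more than a single X chromosome, was detected in 0 of 37 Sox9Y440X/+ and 34 of 56 wild-type epithelium-like cells and marks cells of female animals. An FPKM listed at 0 need not mean absence, since the household gene Gapdh was listed at 0 in 2 and Eef2 in 5 of the 115 kept cells.

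Hmx2 and Hmx3 are neighbouring homeobox genes of the vestibular inner ear, on the plus strand of chromosome 7 with 3847 bases between them. Hmx2 spans chr7:131548773-131558014 and Hmx3 chr7:131542867-131544925 (GRCm38). Their RefSeq promoters (GRCm38.p6, 250 bases before to 50 bases after a start) are shown because every cell with Hmx2 was Foxi1-positive, while Hmx3 was detected in 1 of those cells. Capitals mark a match, on either strand, to the forkhead motifs TGTTTAC or TGTTTGC, the Sox motif ACAAAG, the TATA motif TATAAA or the homeodomain motif TAATTA.

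Hmx2 upstream start, chr7:131548507-131548806: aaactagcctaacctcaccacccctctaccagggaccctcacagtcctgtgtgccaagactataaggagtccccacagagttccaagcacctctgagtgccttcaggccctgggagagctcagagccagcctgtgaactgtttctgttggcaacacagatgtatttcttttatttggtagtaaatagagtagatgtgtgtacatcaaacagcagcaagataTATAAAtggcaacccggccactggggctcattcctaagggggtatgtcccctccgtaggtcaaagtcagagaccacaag
Hmx2 downstream start, chr7:131554043-131554342: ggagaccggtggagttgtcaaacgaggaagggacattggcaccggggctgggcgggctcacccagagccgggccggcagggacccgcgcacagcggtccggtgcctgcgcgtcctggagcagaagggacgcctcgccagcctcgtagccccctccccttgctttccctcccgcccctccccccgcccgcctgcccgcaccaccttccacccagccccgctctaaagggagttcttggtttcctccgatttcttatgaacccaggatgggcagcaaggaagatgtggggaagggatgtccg
Hmx3, chr7:131542713-131543012: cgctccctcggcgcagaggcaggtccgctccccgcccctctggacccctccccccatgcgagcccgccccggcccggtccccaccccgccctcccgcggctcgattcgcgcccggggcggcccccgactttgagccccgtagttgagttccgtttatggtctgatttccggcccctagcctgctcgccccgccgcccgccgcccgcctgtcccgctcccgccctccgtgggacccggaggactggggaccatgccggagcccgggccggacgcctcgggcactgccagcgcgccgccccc

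The upstream Hmx2 window holds 2 CpG dinucleotides and TATAAA 29 bases before its start, while the downstream window holds 22 and the Hmx3 window 39 CpG dinucleotides, with no match to any of the 5 motifs. The median over all promoters of the table is 7 CpG dinucleotides. TATAAA occurs in 13.6% of the 32851 promoters in that table, TGTTTAC in 3.65%, TGTTTGC in 5.07%, ACAAAG in 18.7% and TAATTA in 5.29%. No 2 matches in the promoters of the factors overlapped. The table holds promoters for 22 of the 30 factors. The files give 1 value per gene and do not show which Hmx2 start was used.

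Of the 30 factors, 5 were detected in at least 50% of the epithelium-like cells of both genotypes. They were the homeodomain factors Dlx5, Lmx1a and Msx2, the corepressor Dach2 and the T-box repressor Tbx2. Another 11 reached 10% of the cells in at least 1 genotype, namely Pax2, Pax8, Dlx6, Hmx2, Emx2, Six4, Dach1, Gata3, Msx1, Irx3 and Irx5. A further 10 were found in some cells but in under 10% of either genotype, and 4 were detected in no epithelium-like cell.

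Dlx5, which is needed for the dorsal otic vesicle, was the factor detected in most cells, in 33 of 37 Sox9Y440X/+ cells (89.2%, exact 95% interval 74.6 to 97.0) and 48 of 56 wild-type cells (85.7%, 73.8 to 93.6). Its FPKM ran from 0 to 317 with a median of 110 in the Sox9Y440X/+ cells, against 0 to 671 with a median of 121 in the wild-type cells. The mean of log2(FPKM + 1) was 6.0 (SD over cells 2.40) and 5.99 (SD 2.88), and the groups overlapped over nearly the whole range. Lmx1a, a LIM-homeodomain factor of the duct and dorsal vesicle, was detected in 31 of 37 Sox9Y440X/+ and 43 of 56 wild-type cells. Its FPKM had medians of 13.8 in the Sox9Y440X/+ cells (0 to 213) and 20.5 in the wild-type cells (0 to 226), and its mean log2 level was 3.74 (SD 2.45) and 3.83 (SD 2.61). Dlx5 and Lmx1a thus differed between the genotypes by 0.00 and -0.09 log2 units over all epithelium-like cells. In cluster 3 only, with 11 cells of each genotype, Lmx1a averaged 3.89 in Sox9Y440X/+ and 4.96 log2 units in wild-type cells, a difference of -1.08.

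Msx2, a homeodomain target of BMP signalling, was detected in 32 of 37 Sox9Y440X/+ and 42 of 56 wild-type cells. Median FPKM was 55.1 (0 to 449) in the Sox9Y440X/+ cells and 60.3 (0 to 342) in the wild-type cells. The higher Sox9Y440X/+ mean, 5.36 (SD 2.44) against 4.58 (SD 2.89) log2 units in wild type, came with a lower median. Tbx2 was detected in 22 of 37 Sox9Y440X/+ and 28 of 56 wild-type cells, with median FPKM of 3.74 (0 to 155) and 1.18 (0 to 64.5). Its mean log2 level was 2.46 (SD 2.26) in Sox9Y440X/+ and 2.06 (SD 2.22) in wild-type cells.

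**Figure D1:**
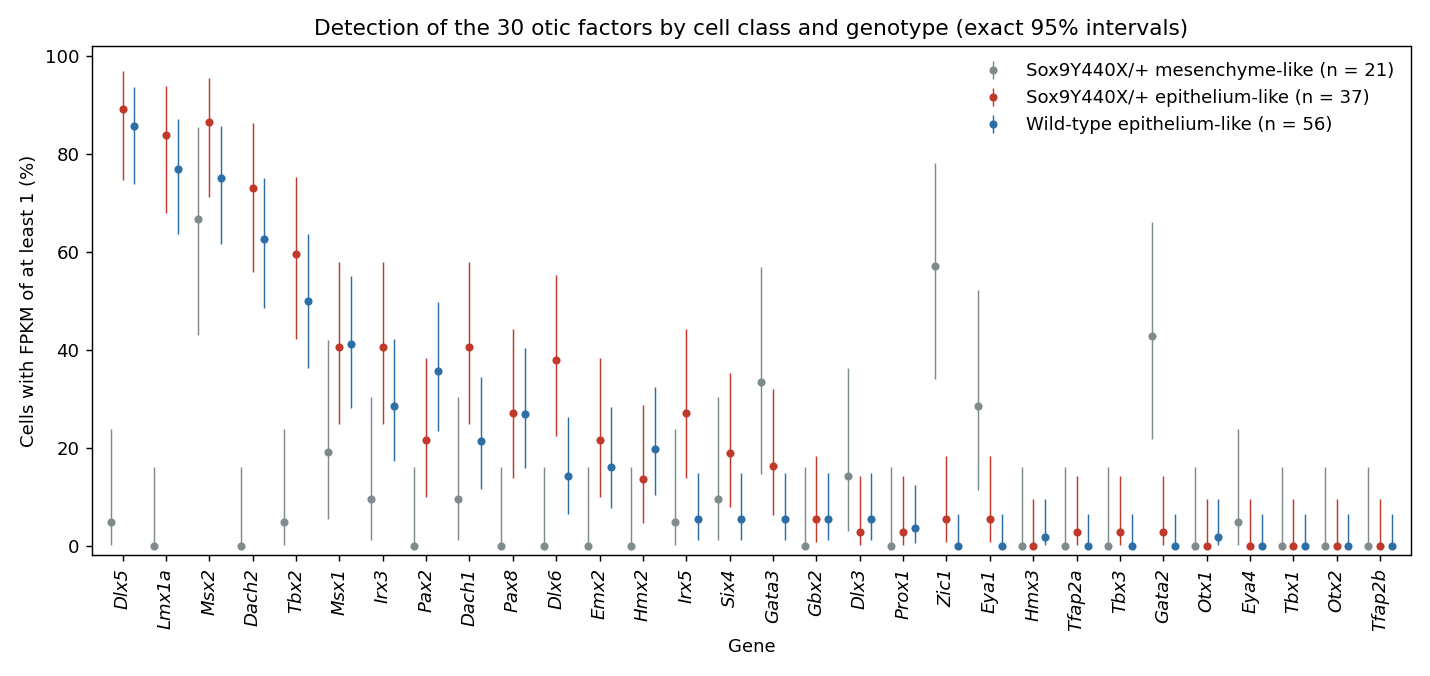
Share of cells in percent with an FPKM of at least 1 for each of the 30 factors, in 21 Sox9Y440X/+ mesenchyme-like, 37 Sox9Y440X/+ epithelium-like and 56 wild-type epithelium-like cells; bars are exact 95% intervals that cover counting error only. Dlx5, Lmx1a, Msx2, Dach2 and Tbx2 lead in the epithelium of both genotypes, and Zic1, Gata2 and Eya1 stand out in the mesenchyme-like cells.

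The detected members of a pair often differed widely in how many cells carried them. Dlx6, the neighbour of Dlx5 on chromosome 6, was detected in 14 of 37 Sox9Y440X/+ and 8 of 56 wild-type cells, and 13 and 7 of these cells also carried Dlx5. Dlx6 was detected in 39.4% of Sox9Y440X/+ cells with Dlx5 and in 1 of the 4 without (25%). In wild type it was detected in 14.6% of cells with Dlx5 and in 1 of the 8 without (12.5%). The shares without Dlx5 thus rest on very few cells. The Dlx6 level rested on few cells, with a highest FPKM of 70.5 in Sox9Y440X/+ and 513 in a wild-type cell. Msx1, the paralog of Msx2, was detected in 15 of 37 Sox9Y440X/+ and 23 of 56 wild-type cells, and Msx2 was found in 15 of those 15 and 19 of those 23. Cells without Msx1 also carried Msx2 often, 77.3% of them in Sox9Y440X/+ and 69.7% in wild type. Dach1, the paralog of Dach2, was detected in 15 of 37 and 12 of 56 cells, of which 13 and 10 also carried Dach2. Of the cells without Dach1, 63.6% in Sox9Y440X/+ and 56.8% in wild type carried Dach2. The Iroquois factors Irx3 and Irx5 were detected in 15 and 10 of 37 Sox9Y440X/+ cells, against 16 and 3 of 56 wild-type cells, and occurred together in 7 and 1. Irx5 was detected in 46.7% of Sox9Y440X/+ cells with Irx3 and 13.6% of those without, and in 6.25% and 5% in wild type.

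Among the early placode factors, Pax2 was detected in 8 of 37 Sox9Y440X/+ and 20 of 56 wild-type cells and Pax8 in 10 of 37 and 15 of 56. Where detected, median FPKM was 3.17 and 3.29 for Pax2 but 59.3 and 62 for Pax8. Both were present in 4 Sox9Y440X/+ and 10 wild-type cells, but in 0 and 2 cells at a limit of 10. Emx2, a homeodomain factor that sets hair cell orientation, was detected in 8 of 37 and 9 of 56 cells. Six4, a homeodomain partner of the Eya proteins, was detected in 7 of 37 Sox9Y440X/+ and 3 of 56 wild-type cells. Gata3, a zinc-finger factor of otic morphogenesis, was detected in 6 of 37 and 3 of 56.

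Eya1 and Eya4 are phosphatase coactivators that partner Six4 and the Dach proteins. Eya1 was detected in 2 of 37 Sox9Y440X/+ and 0 of 56 wild-type cells and Eya4 in none of the 93. Gbx2, which the duct requires at an earlier stage, was detected in 2 Sox9Y440X/+ and 3 wild-type cells. Dlx3 was detected in 1 and 3. Prox1 was detected in 1 and 2 cells. Zic1 was detected in 2 of 37 Sox9Y440X/+ cells, and Tbx3, Gata2 and the AP-2 factor Tfap2a in 1 each, with none in wild type. Hmx3 and Otx1 were each detected in 1 wild-type cell and no Sox9Y440X/+ cell. Tbx1, Otx2 and Tfap2b were, like Eya4, detected in 0 of 93 epithelium-like cells, which allows a share of up to 3.23%.

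Smart-seq2 libraries do not mark strand, and how the counting treated strand is not given in the sources used here. Reads of a factor and of an opposite-strand gene that shares its exons therefore cannot be told apart. This touches Emx2, whose antisense gene Emx2os was detected in 14 of the 93 cells, 6 of them among the 17 with Emx2. All 4 cells with the opposite-strand D130058E05Rik were among the 5 with Gbx2. Irx3os was detected in 7 cells, 2 of them with Irx3. Dlx6os1 overlaps Dlx6 without shared exon bases and was detected in 49 cells, 13 of the 22 with Dlx6 among them.

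Of 47 relatives of the same families, Eya3, Dlx1 and Dlx2 were detected in at least 10% of the epithelium-like cells of a genotype, 13 in fewer cells and 31 in none. Eya3 was detected in 10 of 37 Sox9Y440X/+ and 10 of 56 wild-type cells. Dlx1 was detected in 10 of 37 Sox9Y440X/+ and 1 of 56 wild-type cells, and its neighbour Dlx2 in 13 of 37 and 9 of 56. Of 14 factors of otic neurons and hair cells, Sox21 was detected in 1 wild-type cell and the other 13, Atoh1, Neurog1 and Sox2 among them, in none.

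For the genotype comparison, 16 of the 30 factors were detected in at least 10% of the epithelium-like cells of either genotype. Dach2 alone was higher by at least 1 log2 unit in Sox9Y440X/+ cells, against 8.02% of all 10342 genes tested, and 0 factors were lower by that much, against 1.38% of all genes. The count depended on which cells were compared: against the wild-type cells without Xist, Dach2 and Dlx6 (1.06) were higher and Hmx2 (-1.36) was lower by at least 1 log2 unit. No share of all genes is given for that comparison. Over all epithelium-like cells, the difference was above 0 for 12 factors and below 0 for 4, beside 69.9% of all genes above 0. Its median was 0.29 log2 units over the 16 factors and 0.22 over all genes. The factors were thus close to the background of all genes, in cells of which the Sox9Y440X/+ ones had more genes per cell.

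Dach2, on the X chromosome, was detected in 27 of 37 Sox9Y440X/+ and 35 of 56 wild-type cells. Its FPKM had a median of 55 (0 to 607) in Sox9Y440X/+ cells and 22.6 (0 to 331) in wild-type cells, and both groups held cells at 0. The second highest Dach2 value was 394 in Sox9Y440X/+ and 295 in wild-type cells. The mean log2 level was 4.69 (SD 3.23) against 3.64 (SD 3.21) in wild type, a difference of 1.05, which was 1.0 against the wild-type cells without Xist. The difference was not the same in every cluster. In cluster 3, with 11 cells of each genotype and median gene numbers of 5237 and 5346, Dach2 was detected in 9 Sox9Y440X/+ and 11 wild-type cells and its mean was lower in Sox9Y440X/+ by 1.95 log2 units (4.28 against 6.22). Cluster 2, with 10 Sox9Y440X/+ cells and 1 wild-type cell, had Sox9Y440X/+ Dach2 in 10 of 10 cells at a mean of 7.51, whereas cluster 8, with 10 wild-type cells only and a median of 2057.5 genes, had it in 4 of 10 at a mean of 2.07. Without cluster 8 the difference was 0.71, among cells of 2500 to 5500 genes 0.61, and among Foxi1-negative cells 0.61. The part of cluster makeup, gene number and sex in the pooled difference was not tested.

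Below that size, Dlx6 was higher in Sox9Y440X/+ cells by 0.94, Irx5 by 0.81, Msx2 by 0.78 and Dach1 by 0.61 log2 units, and Hmx2 was lower by 0.60. For Dlx6 the log2 ratio of mean FPKM was -0.53, the opposite sign, with 1 wild-type cell at an FPKM of 513, and in cluster 3 only the Dlx6 difference was 1.73. On the log2 ratio of mean FPKM, Irx5 was higher by 2.19 and Six4 by 1.19, while Hmx2 stood at -2.29 and Pax2 at -1.88. The highest wild-type Pax2 value was an FPKM of 99.3, in 1 cell. At a pseudocount of 0.1, Dlx6 was higher by 1.84, Irx5 by 1.48, Msx2 by 1.14 and Dach1 by 1.11. Hmx2 was lower beside a smaller share of Foxi1-positive cells, 7 of 37 in Sox9Y440X/+ against 22 of 56 in wild type. Among the Foxi1-negative cells alone, Pax8 was higher by 1.05 in Sox9Y440X/+ cells (9 of 30 against 4 of 34 cells) and Msx1 lower by 1.06 (11 of 30 against 17 of 34).

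**Figure D2:**
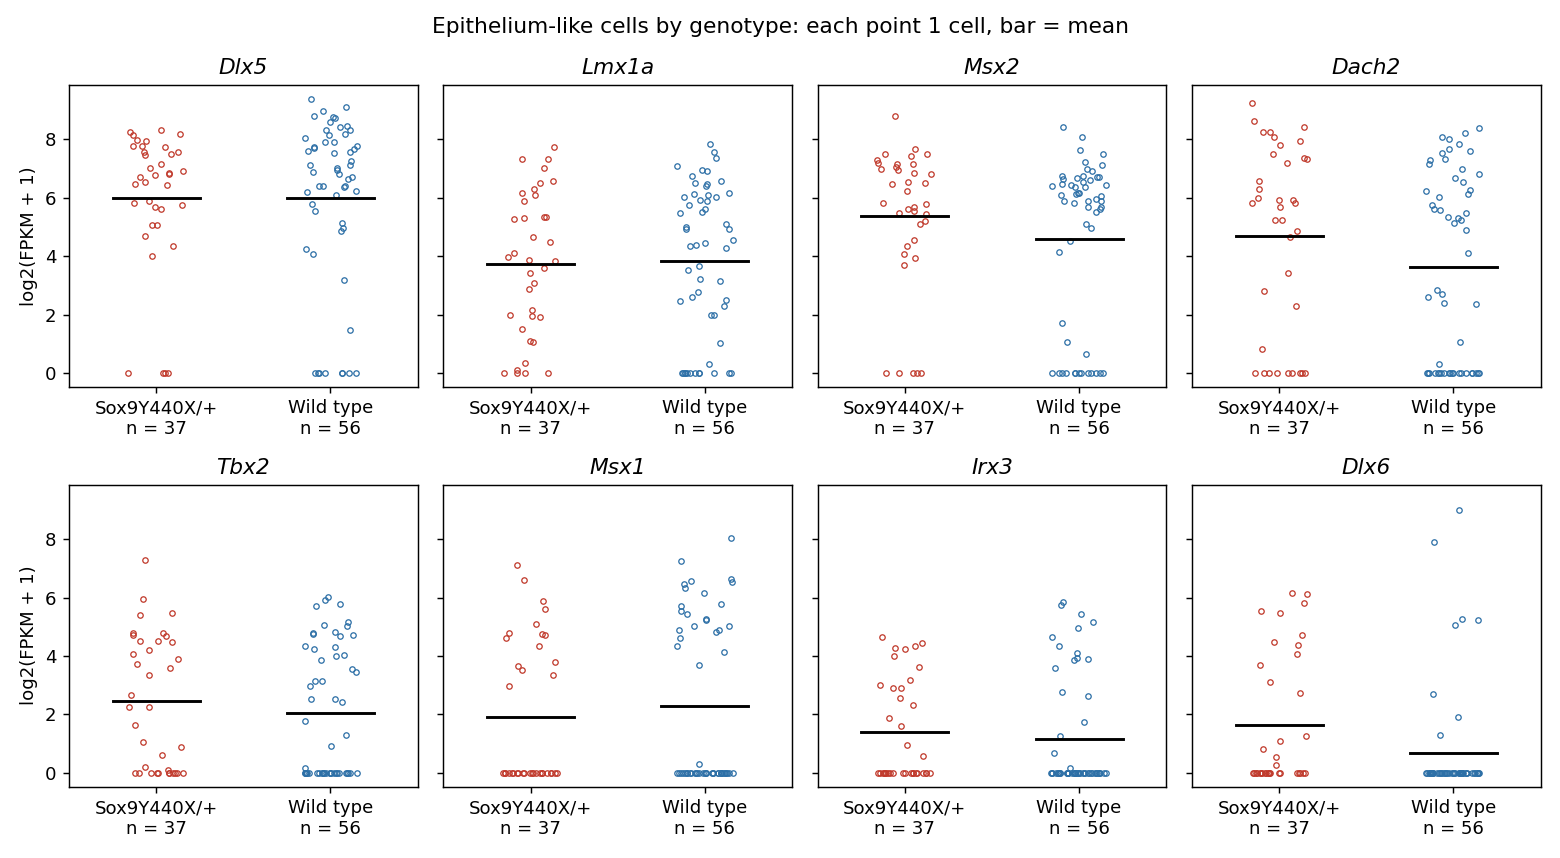
Level in log2(FPKM + 1) of 8 factors in single epithelium-like cells, 37 Sox9Y440X/+ and 56 wild-type; each point is a cell and the bar is the mean. The genotypes overlap for every factor shown, and the mean of Dach2 is 4.69 in Sox9Y440X/+ and 3.64 in wild-type cells.

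Foxi1 was detected in 7 Sox9Y440X/+ and 22 wild-type epithelium-like cells. Hmx2 was detected in 5 of the 7 Sox9Y440X/+ Foxi1-positive cells against 0 of 30 Foxi1-negative ones, and in 11 of 22 wild-type Foxi1-positive cells against 0 of 34. A count of 0 allows a share of up to 10% in the Sox9Y440X/+ and 8.82% in the wild-type Foxi1-negative cells. The 5 Sox9Y440X/+ cells had Hmx2 at an FPKM of 102.4, 88, 86.8, 54.1 and 34.4, and the 11 wild-type cells ran from 4.34 to 691 with a median of 189. The mean of the Foxi1-positive cells stood 4.36 log2 units above the Foxi1-negative ones in Sox9Y440X/+ and 3.64 in wild type, sizes that depend on the pseudocount because every Foxi1-negative cell is listed at 0. Fgfr2, which overlaps Hmx2 on the opposite strand without shared exon bases, was detected in 36 of the 93 cells, 4 of the 16 with Hmx2 among them. Of the 8993 genes detected in at least 10 epithelium-like cells, 0.156%, or 14 genes, were found in Foxi1-positive cells and in no Foxi1-negative cell. Hmx2 was among them, and it was 1 of 15 of the factors that reached 10 cells. Beside it stood the proton pump subunits Atp6v1c2, Atp6v0d2 and Atp6v1g3, the receptor Insrr and the chloride channel subunit Bsnd. These companions are all on the ionocyte marker list used below. The rest were Dcn, which is on the mesenchyme marker list, Coch, 1700024P16Rik, Plet1os, Rnf152, Adgrf5, Entpd1 and Stap1.

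The Foxi1-positive cells were divided by how many of 15 other ionocyte markers they carried, a division added after the data were seen. No Foxi1-negative cell carried 5 or more. Hmx2 was detected in 16 of the 17 cells with at least 5 and in 0 of the 12 with fewer. Foxi1 itself ran from 134 to 1726 FPKM with a median of 674 in the 17 cells, against 3.37 to 329 with a median of 42.5 in the 12. The number of genes had a median of 4391 (1209 to 6331) in the 17 cells, against 5127.5 (2235 to 6236) in the 12. Hmx3, the neighbour, was detected in 1 of the 16 Hmx2-positive cells, at an FPKM of 38.9.

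**Figure D3:**
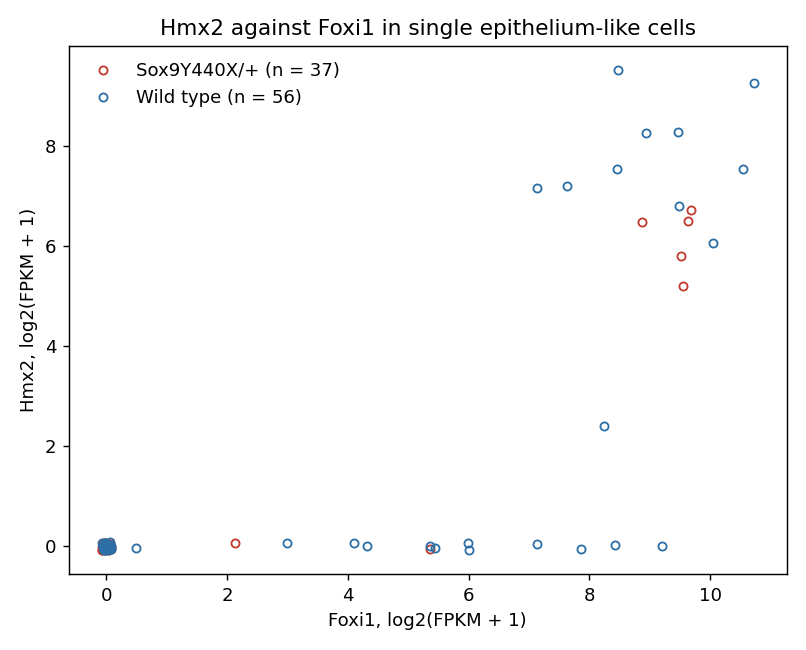
Hmx2 against Foxi1, both in log2(FPKM + 1), in 37 Sox9Y440X/+ and 56 wild-type epithelium-like cells; points carry a small random offset so that cells at 0 can be seen. All 16 cells with Hmx2 have Foxi1 at an FPKM of 133.6 or more, and cells with low Foxi1 lie at 0 for Hmx2. Some cells with high Foxi1 also lie at 0, among them wild-type cells at a Foxi1 FPKM of 608 and 329.

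In wild-type cells, 13 factors reached 10% of either Foxi1 group. Hmx2 and Pax8 were higher by at least 1 log2 unit in Foxi1-positive cells. That is 15.4% of the 13, close to the 16% of all 9585 genes tested. Dach2, Lmx1a, Msx1 and Msx2 were lower, 4 of 13 beside 2.41% of all genes. The difference was above 0 for 6 factors and below 0 for 7, beside 68.8% of all genes above 0. Its median was -0.16 log2 units over the 13 factors and 0.29 over all genes. Of the factors higher or lower by at least 1 log2 unit, Hmx2 passed the 10% filter only through the Foxi1-positive cells. The median number of genes was 4491.5 in Foxi1-positive and 3046 in Foxi1-negative cells, and its part in these differences was not tested. Lmx1a was detected in 12 of 22 Foxi1-positive and 31 of 34 Foxi1-negative cells, with a median FPKM of 3.99 (0 to 90.5) against 30.6 (0 to 226), a mean difference of -1.88. Dach2 was detected in 11 of 22 against 24 of 34 cells, with a median FPKM of 0.661 (0 to 126) against 41.4 (0 to 331), a difference of -2.12. Msx2 was detected in 15 of 22 against 27 of 34 and Msx1 in 6 of 22 against 17 of 34, and each differed by -1.42. The groups overlapped for all 4. Lmx1a differed by -0.78 among cells of 2500 to 5500 genes and Msx2 by -0.81 among cells of at least 2000 genes.

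The lower levels lay mainly in the marker-rich cells. Among 12 wild-type Foxi1-positive cells with at least 5 ionocyte markers, Lmx1a was detected in 4, Dach2 in 2, Msx1 in 1 and Msx2 in 6. Among the 10 with fewer markers the counts were 8, 9, 5 and 9, beside 31, 24, 17 and 27 of the 34 Foxi1-negative cells. Dlx5 was detected in 8 of 12, in 10 of 10 and in 30 of 34, and Tbx2 in 3 of 12, 8 of 10 and 17 of 34. The median gene numbers of these wild-type groups were 4491.5, 4669.5 and 3046.

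Pax8 and Pax2 had another pattern. In wild type, Pax8 was detected in 11 of 22 Foxi1-positive and 4 of 34 Foxi1-negative cells, with a mean difference of 1.84, and Pax2 in 12 of 22 and 8 of 34, with a difference of 0.56. The Pax8 cells were mostly those with few ionocyte markers, 8 of 10, against 3 of the 12 marker-rich cells, and for Pax2 the counts were 9 of 10 and 3 of 12. Median FPKM in those 10 cells was 23.3 for Pax8 (0 to 141) and 3.29 for Pax2 (0 to 36.9), while both medians were 0 in the 12 marker-rich and the 34 Foxi1-negative cells. The highest single wild-type values lay in Foxi1-negative cells, at 178 for Pax8 and 99.3 for Pax2. With the cells divided at 5 ionocyte markers in place of Foxi1, the Pax8 difference was 0.04. Among wild-type cells with at least 4000 genes, a limit added after the data were seen, Pax8 was detected in 4 of 5 cells with few markers, 2 of 7 marker-rich and 2 of 8 Foxi1-negative cells, and Pax2 in 4 of 5, 1 of 7 and 4 of 8.

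In Sox9Y440X/+ cells, 17 factors reached 10% of either Foxi1 group. Hmx2 alone was higher by at least 1 log2 unit in the 7 Foxi1-positive cells, beside 17.1% of all 11992 genes tested, and Dach1 (-1.56) and Dach2 (-2.09) were lower, 2 of 17 beside 7.74%. Here too, Hmx2 passed the 10% filter only through the Foxi1-positive cells. Dach1 was detected in 1 of 7 Foxi1-positive and 14 of 30 Foxi1-negative Sox9Y440X/+ cells. Wild-type cells showed no such drop for Dach1, with 5 of 22 against 7 of 34 cells and a difference of -0.20. Dach2 was detected in 4 of 7 Foxi1-positive and 23 of 30 Foxi1-negative Sox9Y440X/+ cells, and in 2 of the 5 cells with at least 5 ionocyte markers. Pax8 was detected in 1 of 7 Foxi1-positive and 9 of 30 Foxi1-negative Sox9Y440X/+ cells, and Pax2 in 1 of 7 and 7 of 30. Only 2 Sox9Y440X/+ cells were Foxi1-positive with few ionocyte markers, and neither carried Pax8 or Pax2.

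Lmx1a and Msx2 were each detected in 7 of 7 Sox9Y440X/+ Foxi1-positive cells. In the marker-rich cells, Lmx1a was detected in 5 of 5 Sox9Y440X/+ and 4 of 12 wild-type cells, with a median FPKM of 3.51 (2.81 to 37.6) against 0 (0 to 44.4). Msx2 was detected in 5 of 5 and 6 of 12, with a median FPKM of 48.2 (14.2 to 155) against 0.847 (0 to 82.9), and Dlx5 in 5 of 5 and 8 of 12. The Sox9Y440X/+ values lay within or above the wild-type ranges, with median gene numbers of 4249 and 4491.5. With 5 cells from an unknown number of animals, whether the genotypes differ here was not tested.

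**Figure D4:**
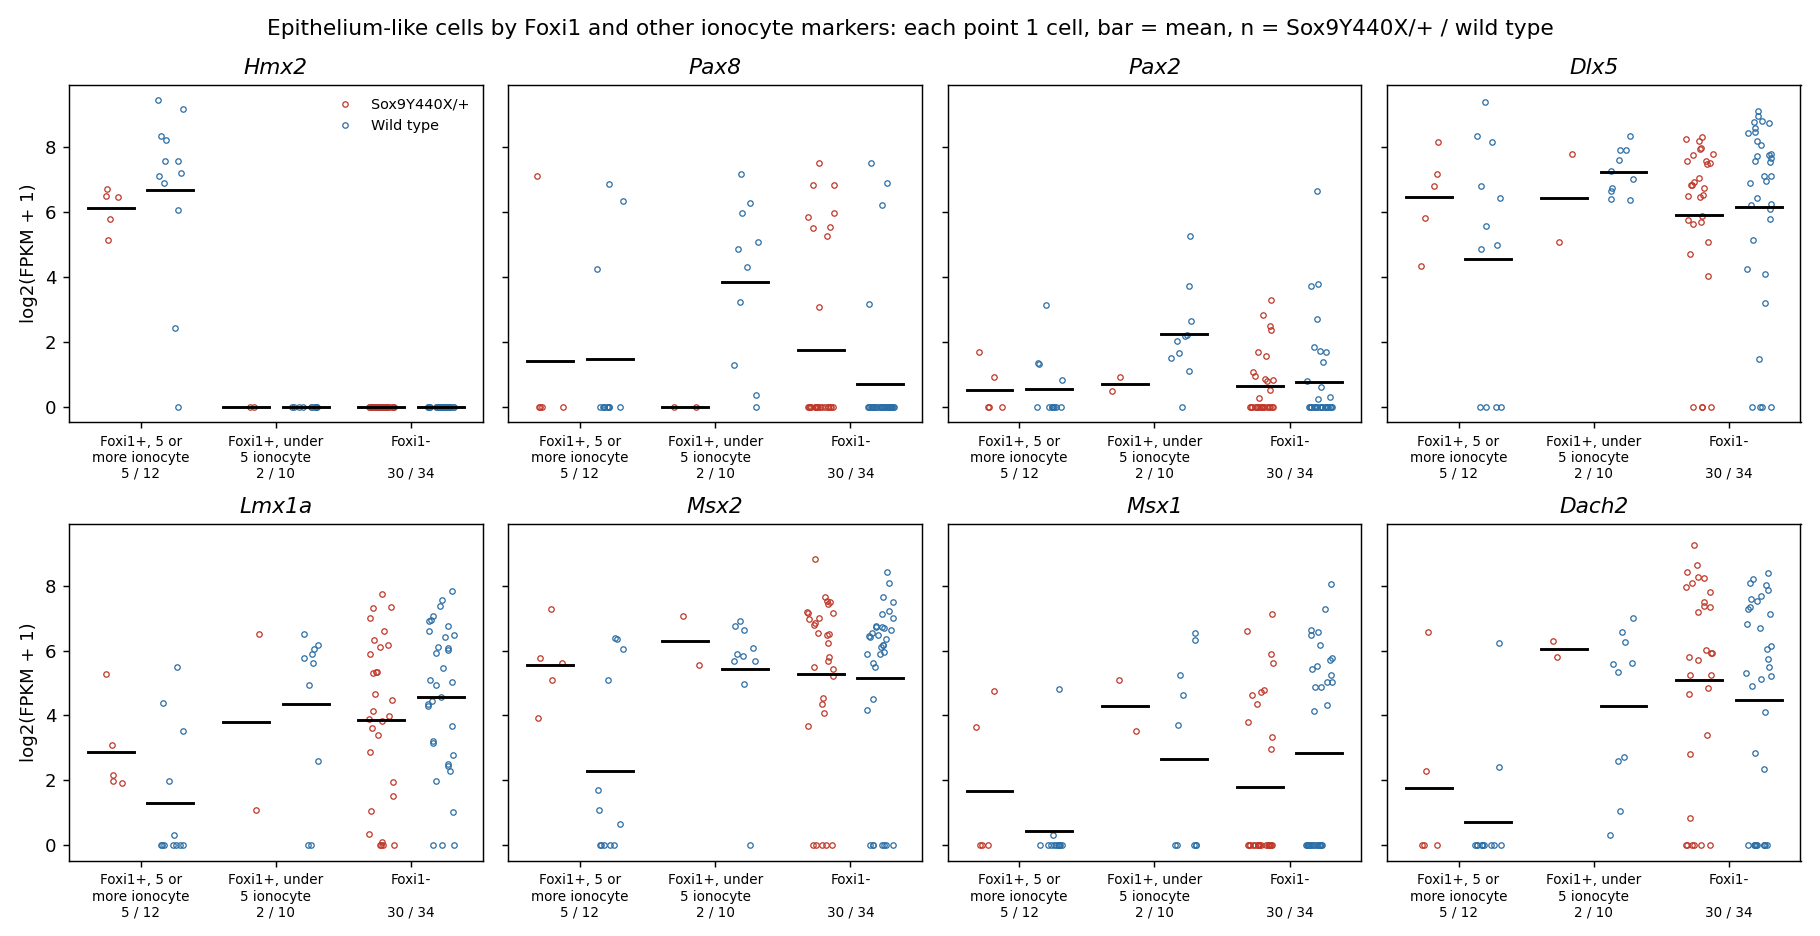
Level in log2(FPKM + 1) of 8 factors in epithelium-like cells that are Foxi1-positive with at least 5 other ionocyte markers (5 Sox9Y440X/+, 12 wild-type), Foxi1-positive with fewer (2 and 10) or Foxi1-negative (30 and 34); each point is a cell and bars are means. Hmx2 is limited to the first group, and Dach2 is low there. The means of Pax8 and Pax2 are highest in wild-type cells of the middle group. The highest single wild-type cell of each is Foxi1-negative.

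By cluster, Hmx2 was detected in all 13 cells of cluster 1, led by Atp6v1c2 and Foxi1, and in 3 of the 10 wild-type cells of cluster 8. In cluster 3, led by Aldh1a1, a retinoic acid synthesis enzyme, Dlx5, Lmx1a and Msx2 were each detected in 11 of 11 Sox9Y440X/+ and 11 of 11 wild-type cells, at median FPKM for Lmx1a of 14.7 and 43.3. Cluster 6, led by Spp1 and the otoconial protein Oc90, had Msx1 in 0 of 6 Sox9Y440X/+ and 14 of 22 wild-type cells and Tbx2 in 0 of 6 and 10 of 22. Irx5 was detected there in 1 of 6 Sox9Y440X/+ and 0 of 22 wild-type cells, and in cluster 2 in 6 of 10 Sox9Y440X/+ cells and not in the 1 wild-type cell. The median gene numbers in cluster 6 were 3018 and 3137.5. Other clusters did not repeat the cluster 6 counts of Msx1 and Tbx2. In cluster 3, Msx1 was detected in 6 of 11 Sox9Y440X/+ and 5 of 11 wild-type cells, and Tbx2 in 8 of 11 and 10 of 11. In cluster 1, Msx1 was detected in 2 of 5 Sox9Y440X/+ and 1 of 8 wild-type cells, and Tbx2 in 3 of 5 and 2 of 8.

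**Figure D5:**
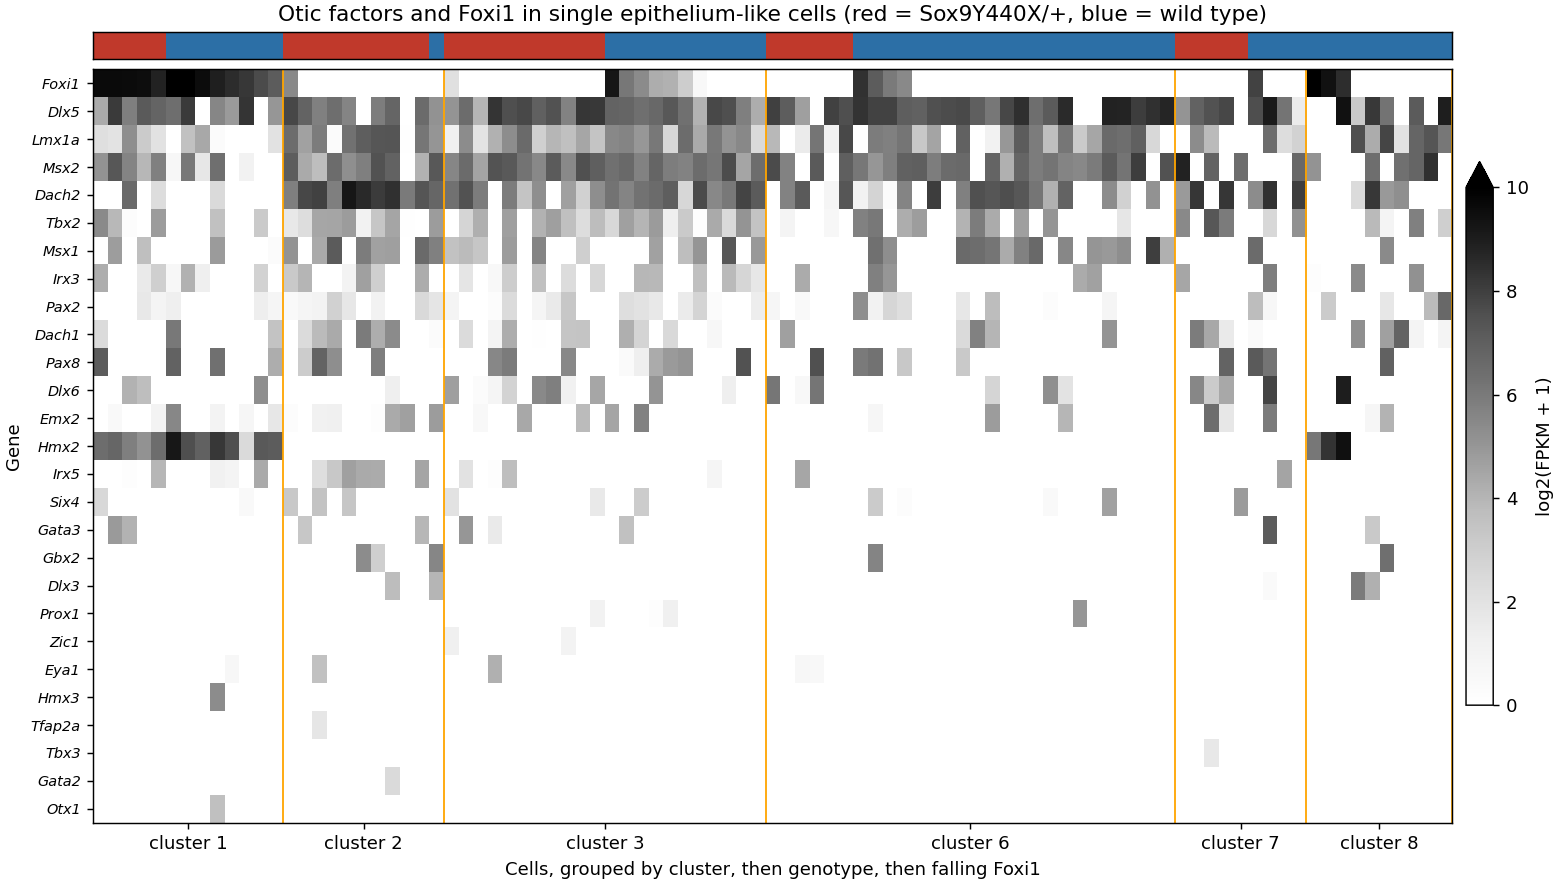
Level in log2(FPKM + 1) of Foxi1 and the 26 factors detected in any epithelium-like cell, with 1 column per cell, ordered by cluster, then genotype (strip on top), then falling Foxi1. Dlx5, Lmx1a and Msx2 fill most columns, and in cluster 1 Hmx2 is present in every cell while Dach2 is present in 2 of 5 Sox9Y440X/+ and 1 of 8 wild-type cells.

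The 21 Sox9Y440X/+ mesenchyme-like cells carried few of these factors, with a median of 3 per cell. Of 20 factors tested against the 37 Sox9Y440X/+ epithelium-like cells, Eya1, Gata2 and Zic1 were higher by at least 1 log2 unit, 3 of 20 beside 8.41% of all 10950 genes, and 9 were lower beside 16.2%. Zic1, a zinc-finger factor, was detected in 12 of 21 mesenchyme-like and 2 of 37 epithelium-like cells, with median FPKM of 1.99 (0 to 21.3) and 0 (0 to 1.32). The factor Gata2 was detected in 9 of 21 against 1 of 37 and Eya1 in 6 of 21 against 2 of 37. Zic1 shares exon bases with the opposite-strand Zic4, detected in 14 of the 21 cells, so their reads cannot be told apart. The 21 cells were not all alike in their markers. In 1 of them all 8 endothelium markers were detected, at a summed 2331 FPKM, with 0 of 14 mesenchyme markers, and Zic1, Gata2, Eya1 and Msx2 were listed at 0 there. Another had 2 endothelium markers at a summed 798 FPKM beside 2 mesenchyme markers, and the remaining cells had at most 1 endothelium marker and from 4 to 13 mesenchyme markers. Without the cell with 8 endothelium markers, left out after the data were seen, 12 factors were again past the fold. No share of all genes is given for that count. Gata2, also a factor of endothelial cells, reached its highest FPKM of 88.3 in a cell with 0 endothelium markers.

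The 9 lower factors were Pax8, Dlx5, Dlx6, Dach1, Dach2, Tbx2, Lmx1a, Msx2 and Irx3. Pax8, Dlx6, Lmx1a and Dach2 were detected in 0 of 21 mesenchyme-like cells, which allows a share of up to 14.3%. Dlx5 and Tbx2 were detected in 1 of 21 each, and Dach1 and Irx3 in 2 of 21 each. Msx2, lower by 1.42 log2 units on average, was present in many of them, with 14 of 21 mesenchyme-like cells positive at a median FPKM of 58.9 (0 to 169), against 55.1 in the epithelium-like cells. Msx1 was detected in 4 of 21 and Gata3 in 7 of 21. The clusters were made from the expression of these cells, so these differences between classes are a description.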

How the data were processed

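Whole-cell RNA of single endolymphatic sac cells was measured by Smart-seq2. The deposited table gives the authors' FPKM per gene and cell. Per the submitters' processing notes, the mouse build was mm10 and the tools included Cufflinks, HTSeq, HISAT2 and SAMtools 0.1.18, whose roles are not given. Depth per cell in reads is unknown, so gene numbers from the labels stand in for it. Of 120 cells, 115 with at least 1000 genes were kept. Detection means at least 1 FPKM. Levels are log2(FPKM + 1), computed here from the deposited values. Cells were grouped by genotype label and by Ward clustering into 8 clusters on 15 principal components of 1500 variable genes, without the 30 factors. Clusters were named from fixed marker lists. No doublet caller was run. A difference was called past the fold at 1 log2 unit in genes detected in at least 10% of either group. With 1 sample per genotype no test was made, and cells are not replicates. Shares carry exact Clopper-Pearson 95% intervals, and the limit for a count of 0 is 3 cells of the total. Both cover counting error only. Factors were named as follows: all 30 are accounted for. Those past the fold or reaching 50% of a genotype's epithelium-like cells have counts of detecting cells per group. Relatives and neurosensory factors that reached 10% of a genotype's cells are named. The 30 factors and all lists were chosen with earlier results of these data known. Coordinates are from GENCODE M21 and promoters from RefSeq, both on GRCm38. The calculation was tested on simulated data, with changes larger than 1 log2 unit put into genes detected in at least 50% of the kept cells. That test does not cover factors detected in fewer cells or the small groups of cells compared here. Python 3.11.15, NumPy 2.4.6, pandas 2.3.3, SciPy 1.17.1 and matplotlib 3.10.9 were used.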

Additional observations from a re-analysis of the deposited data

How the results depend on the processing

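No paired analysis was possible because cell numbers only name cells and no test was made. Depth, sex and cluster makeup differed between the genotypes, 1 sample each, and bound what the comparisons can show. For Sox9Y440X/+ minus wild type, 1 factor was past the fold. The count was 5 at a pseudocount of 0.1, 0 at 10, 4 on the log2 ratio of mean FPKM, 0 at the same total in every cell, 0 with at least 2000 genes, 3 against wild-type cells without Xist (Hmx2 lower) and 3 among Foxi1-negative cells (Msx1 lower). It was 0 without cluster 8, 3 in cluster 3 only and 0 without cluster 1, the last group of settings having been added after the data were seen. Dach2 reversed to -1.95 in cluster 3 only. For Foxi1-positive minus Foxi1-negative wild-type cells, 6 factors were past the fold and 2 at a pseudocount of 10. In Sox9Y440X/+ cells 3 were past it, against 8 at a pseudocount of 0.1, 8 on the ratio of means, 6 at 2500 to 5500 genes and 5 without the highest cell of each group. For mesenchyme-like minus epithelium-like cells 12 were past it and 3 at a pseudocount of 10. No share of all genes is given for the changed settings. A move of the factors therefore cannot be told from a move of all genes. The cause of these moves was not tested. The Foxi1-positive difference of Hmx2 was smallest at a pseudocount of 10, at 2.13 in Sox9Y440X/+ and 2.07 in wild-type cells. That of Dach2 ran from -3.37 to -1.30 and from -3.71 to -1.28 over 14 settings each. The factors in at least 50% of cells were 5 in each genotype, 4 at a limit of 10. Among 180 shares in cells of at least 4000 genes, 21 left the interval of the main share. In wild-type Foxi1-negative cells these were Dach2, Dlx5, Gata3, Irx3, Irx5, Lmx1a, Msx2, Pax2, Prox1, Six4 and Tbx2. In wild-type Foxi1-positive cells with under 5 other ionocyte markers they were Dach2, Gbx2, Lmx1a, Msx2 and Tbx2. In Sox9Y440X/+ Foxi1-negative cells they were Dach2, Msx1, Msx2, Tbx2 and Tbx3.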
